A study of Mus musculus with 4 samples.

Results

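Kit and the other class III receptor tyrosine kinases were followed, with their ligands, in testes of 2 kinds of mutant male mice. The set was defined by gene name: the receptors Kit, Csf1r, Pdgfra, Pdgfrb and Flt3 and the ligands Kitl, Csf1, Pdgfa, Pdgfb and Flt3l, with every Affymetrix 430A probe set that the platform annotation gives to only one of them. This gave 22 of 22626 probe sets, 10 for receptors and 12 for ligands, which covered 9 of the 10 genes. Flt3l, the ligand of Flt3, shares its probe set with another gene and was not analysed here.

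The 4 groups were seminiferous tubules of XX/Sry males, tubules of W/Wv males, whole testis of XX/Sry males and whole testis of W/Wv males, all adult, with 1 array each. XX/Sry males lack a Y chromosome and form testes through a transgene of Sry, the testis-determining gene. W/Wv males carry 1 W and 1 Wv allele of Kit on a cross of WB and B6 and were bought. Tubules were what stayed in a strainer after collagenase digestion of testes without tunica. The strain of the XX/Sry males, the transgene's promoter and how many animals an array stands for are not given in these sources. Males of both genotypes are known to lose most of their germ cells, so neither group is a normal testis. Of the 12 Sertoli cell markers measured, 10 lay above background on all 4 arrays. The summed signal of 10 spermatocyte and spermatid markers was 433 in XX/Sry tubules, 254 in W/Wv tubules, 402 in XX/Sry whole testis and 4227 in W/Wv whole testis, so the last array stood apart. Of these 10 markers, 1 lay above background on all 4 arrays and 2 on none. The lower sums therefore include background signals, and differences among them are not read.

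Class III receptors cross the cell membrane once and carry a split tyrosine kinase inside the cell. A paired ligand joins 2 receptor molecules, the kinases phosphorylate each other, and adaptor proteins pass the signal to the Ras, phosphoinositide 3-kinase and Src pathways. In the testis, Kit is made by spermatogonia that have begun to differentiate, by Leydig cells and by mast cells, while Sertoli cells make Kitl. Csf1r marks macrophages, and PDGF receptors are found in the interstitial, peritubular and perivascular cells. The W allele gives a receptor without its membrane-spanning part and the Wv allele an amino acid change in the kinase. Arrays of this design read mostly the end of the messenger RNA, and where the Kit probes lie was not analysed here. The Kit signal is therefore no check of the mutations.

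Promoter sequence is shown for 3 genes: Kit, the only member that passed 2-fold between genotypes in both preparations, Pdgfra, its neighbour, which went opposite ways in the preparations, and Kitl, the ligand of Kit, which passed in neither. Each is the 250 bases before the annotated start in RefSeq for GRCm38.p6, 5′ to 3′ on the plus strand. Kit has 2 annotated starts there, and only the window of the first by position is shown and searched. The RefSeq table matched 7 of the 10 genes. The windows are chr5:75574737-75574986 for Kit, chr5:75152001-75152250 for Pdgfra and chr10:100015571-100015820 for Kitl. Capitals mark GGGCGG, the GC box, and TATAAA, the TATA box, searched on both strands.
Kit: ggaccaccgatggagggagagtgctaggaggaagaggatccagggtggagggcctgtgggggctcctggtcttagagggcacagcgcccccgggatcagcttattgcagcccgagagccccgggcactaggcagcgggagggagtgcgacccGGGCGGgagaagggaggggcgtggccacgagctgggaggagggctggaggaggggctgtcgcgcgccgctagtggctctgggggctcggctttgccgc
Pdgfra: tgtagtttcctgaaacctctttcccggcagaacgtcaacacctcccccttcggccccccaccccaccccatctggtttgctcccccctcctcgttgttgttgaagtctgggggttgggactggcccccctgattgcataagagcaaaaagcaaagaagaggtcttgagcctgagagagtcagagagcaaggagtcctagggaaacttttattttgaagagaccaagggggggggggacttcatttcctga
Kitl: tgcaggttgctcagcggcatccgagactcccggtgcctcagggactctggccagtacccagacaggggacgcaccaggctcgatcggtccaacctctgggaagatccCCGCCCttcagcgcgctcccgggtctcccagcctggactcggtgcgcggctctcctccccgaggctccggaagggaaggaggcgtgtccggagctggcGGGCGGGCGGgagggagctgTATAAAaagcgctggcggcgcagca

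The Kit window held 1 GC box, starting 98 bases before the annotated start, and no TATA box. The Kitl window held 3 GC boxes, of which those starting 45 and 41 bases before the start overlap, and 1 TATA box starting 25 bases before it. The Pdgfra window held neither motif. Of 32851 windows of the same length in the table, 32.7% held the GC box and 12.4% the TATA box. G and C made up 70.8% of the Kit window, 54.4% of the Pdgfra window and 69.2% of the Kitl window, against a median of 52.4% over all windows.

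Values are MAS5 signals, the array maker's measure of brightness per probe set on a linear scale, as deposited. Differences are ratios of single arrays, and the number of arrays limits their precision. A probe set passed when it differed at least 2-fold the same way in both pairs of arrays, which is how the submitters' design text defines a difference. The brightest of 27 bacterial control probe sets gave a background bound per array, 61.0 for XX/Sry tubules, 46.1 for W/Wv tubules, 63.9 for XX/Sry whole testis and 76.3 for W/Wv whole testis. Of the 22 probe sets, 16 lay above the bound on all 4 arrays, 4 on 3 arrays, 1 on 2 arrays and 1 on 1 array. Where the dimmer of a pair lay below its bound, a fold of at least N sets the brighter against the higher of both bounds. The only error came from an additive limma fit of genotype and preparation over all 22626 probe sets, which has 1 residual degree of freedom and counts disagreement between the pairs as error. Its effects are given on the log2 scale with their standard error (SE), over 4 arrays, with p-values adjusted by Benjamini-Hochberg. The median log2 ratio of XX/Sry over W/Wv over all probe sets was -0.02 in tubules and -0.11 in whole testis. The spiked-in hybridisation controls of W/Wv tubules lay a median of 0.46 (log2) over the mean of the arrays.

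**Figure D1:**
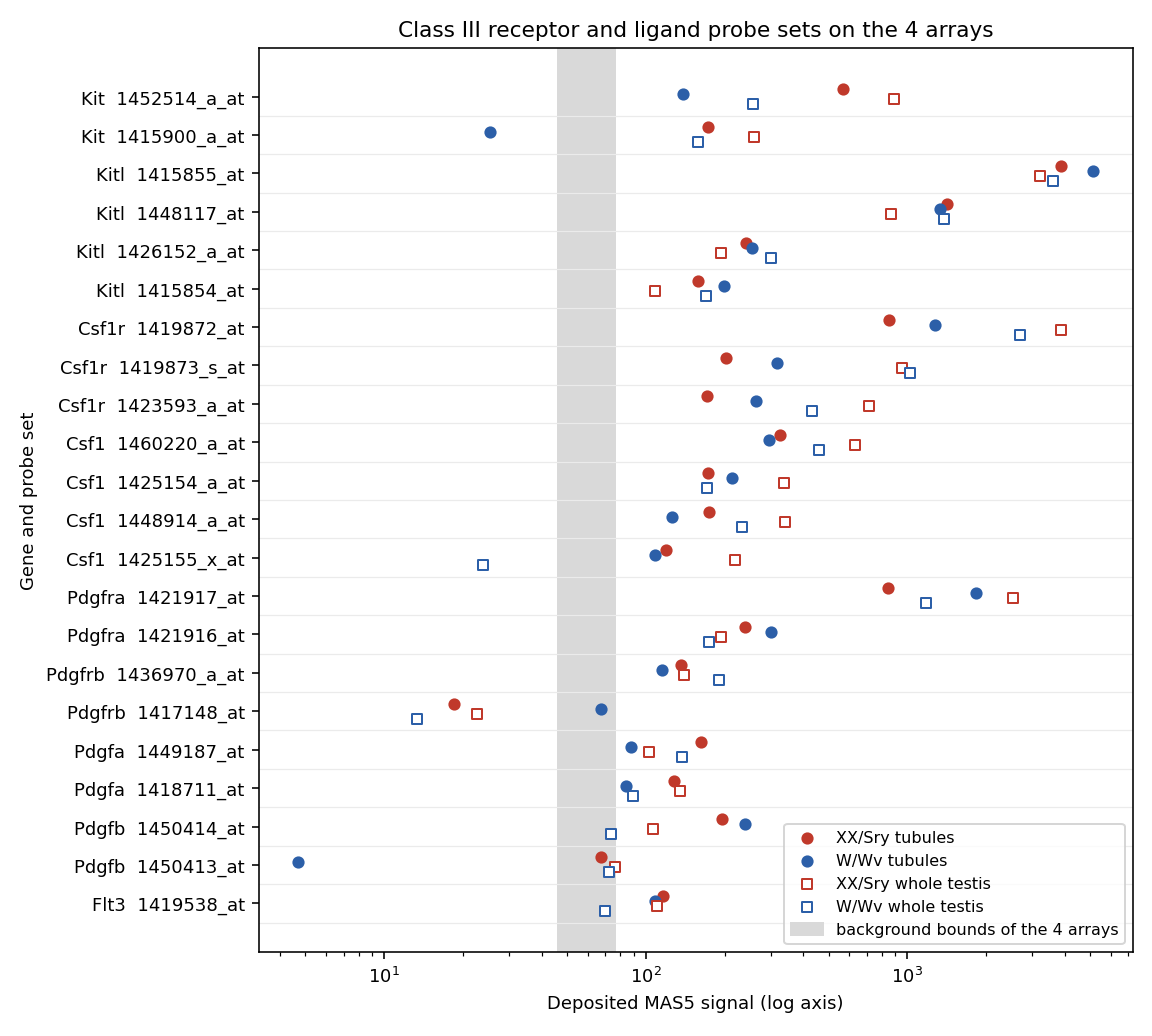
Deposited MAS5 signal (x axis, log scale) of each of the 22 probe sets (rows, by gene) on the 4 arrays, 1 point per array. The grey band runs from the lowest to the highest background bound, 46.1 to 76.3. Both Kit probe sets had their highest signal in XX/Sry whole testis and their lowest in W/Wv tubules, and the 3 Csf1r probe sets had their lowest in XX/Sry tubules.

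Between genotypes, Kit was the only member that passed, on 1 of its probe sets. Of the 22 probe sets 1 was higher in XX/Sry in both preparations, 0 were lower and 21 passed in neither direction. Over all 22626 probe sets 2.2% were higher and 3.8% lower by the same rule, and of those above the bound on all 4 arrays 0.944% and 0.498%. Of the members, 16 belong to the latter group, with 1 higher and 0 lower. The members' median log2 ratio was 0.00 in tubules and 0.52 in whole testis. For the 16 members above the bound on all 4 arrays it was -0.19 and 0.31. In the limma fit 0 of the 22 had an adjusted p under 0.05 for genotype, against 0.11% higher and 0.0398% lower over all probe sets, and 2 had an unadjusted p under 0.05, both of them Kit, against 3.93% higher and 4.8% lower.

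The brighter Kit probe set, 1452514_a_at, had signals of 569 in XX/Sry tubules and 139 in W/Wv tubules. In whole testis it had 892.5 in XX/Sry and 256 in W/Wv. Both XX/Sry arrays were above both W/Wv arrays, with whole testis above tubules within each genotype. The difference was 4.09-fold in tubules and 3.48-fold in whole testis, and the limma fit gave 1.92 ± 0.32 (SE, 4 arrays), with an adjusted p of 0.0525. That p ranged from 0.00476 to 0.706 over the fit and its 5 alternatives and lay under 0.05 in 2 of them. A difference in the number of cells with the transcript and a difference in transcript per cell cannot be told apart in such samples. Without a normal testis, a low signal in W/Wv and a high signal in XX/Sry cannot be told apart either. Any difference of strain between the groups goes together with genotype here.

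The other Kit probe set, 1415900_a_at, had signals of 173 in XX/Sry tubules and 25.4 in W/Wv tubules, where it lay below the bound. It had 260.2 in XX/Sry whole testis and 158 in W/Wv whole testis. The arrays stood in the same order as for 1452514_a_at. The difference was at least 2.84-fold in tubules and 1.64-fold in whole testis, so this probe set did not pass, and its fitted effect was 1.74 ± 0.62 (limma, adjusted p = 0.424). That effect takes the signal below the bound at face value, and the mean log2 ratio was 1.11 with the bound in its place and 0.99 with a constant added. Both probe sets have the suffix _a_at, which the maker gives to probes that match several transcripts of 1 gene, so they need not read the same transcripts.

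Kitl, whose protein is the ligand of Kit in a soluble and a membrane-bound form, was measured by 4 probe sets, all above the bound on the 4 arrays. The brightest, 1415855_at, had 3852 in XX/Sry tubules and 5119 in W/Wv tubules, with 3214.5 in XX/Sry whole testis and 3616 in W/Wv whole testis. The next, 1448117_at, had 1417 and 1330.0 in XX/Sry and W/Wv tubules, and 865 and 1376 in XX/Sry and W/Wv whole testis. On all 4 probe sets XX/Sry whole testis was the lowest array. The log2 ratio of XX/Sry over W/Wv lay between -0.67 and -0.17 in whole testis and between -0.41 and 0.09 in tubules. None passed, and the fitted genotype effects had adjusted p-values of 0.83 and above (limma). The other Kitl probe sets, 1426152_a_at and 1415854_at, had signals between 108 and 301 on the 4 arrays.

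Marker lists of the cell types that make Kit are given beside it. The 6 Leydig cell markers measured had median log2 ratios of XX/Sry over W/Wv of 1.13 in tubules and 0.75 in whole testis, and 1 of the 6 passed, Hsd17b3, which makes testosterone. Over all genes with 1 probe set each, 1.98% were higher and 3.22% lower in XX/Sry. The summed Leydig marker signal was 27472 in XX/Sry tubules and 13508 in W/Wv tubules, with 62520 in XX/Sry whole testis and 39060.0 in W/Wv whole testis. Of the 8 mast cell markers, 2 lay above the bound on all 4 arrays and 3 (Mcpt4, Tpsab1 and Ms4a2) on none. The medians, 0.15 in tubules and 0.08 in whole testis, therefore include ratios of background signals, and 1 marker passed. That gene, Cma1, which encodes a mast cell chymase, had 112 in XX/Sry tubules and 81.4 in XX/Sry whole testis, against 24.9 in W/Wv tubules and 30.9 in W/Wv whole testis, both below the bound. With the bound applied, Cma1 was at least 1.83-fold higher in XX/Sry tubules and at least 1.07-fold higher in XX/Sry whole testis. It then did not pass. Cpa3, the mast cell carboxypeptidase, had 79.0 in XX/Sry tubules, 55.1 in W/Wv tubules, 105 in XX/Sry whole testis and 79.7 in W/Wv whole testis. Hdc, the brightest marker of this list, went the other way and did not pass. Its signals were 1360 in XX/Sry tubules and 1552.5 in W/Wv tubules, with 982 in XX/Sry whole testis and 1162 in W/Wv whole testis. Of the 10 spermatogonial markers 5 were lower in XX/Sry in both preparations and 0 higher, with medians of -0.74 in tubules and -2.17 in whole testis. Of those 5 only Id4 lay above the bound on all 4 arrays, while Ddx4, Lin28a and Sall4 lay below it on both XX/Sry arrays and Stra8 on both tubule arrays and in XX/Sry whole testis. The medians therefore include ratios to background signals. The summed spermatogonial signal was 2207 in XX/Sry tubules and 3284 in W/Wv tubules, with 1659 in XX/Sry whole testis and 4452 in W/Wv whole testis. The part of these cell types in the Kit ratio was not tested.

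On chromosome 5, Kit lies between Pdgfra and Kdr, the gene of a VEGF receptor, in the order of protein-coding genes of GRCm38.p6, and Csf1r lies next to Pdgfrb on chromosome 18. Of the 20 measured genes nearest to Kit, 10 on each side, 0 were higher and 2, Cwh43 and Pdcl2, lower in XX/Sry in both preparations, beside 1.98% and 3.22% of 12393 genes. Both lay above the bound only in W/Wv whole testis, so their tubule ratios are between background signals. Kdr had 222 in XX/Sry tubules and 172 in W/Wv tubules, with 152 in XX/Sry whole testis and 198 in W/Wv whole testis. Its log2 ratios of 0.37 and -0.38 had opposite signs in tubules and whole testis.

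The genes whose pattern over the 4 arrays was most like that of Kit 1452514_a_at were Hyou1, Gpx7, Gpx8, Ctsf and Sqor. Likeness was the root mean square difference of the 4 log2 signals, each centred on its own mean, over 8081 genes with a probe set above the bound on all arrays. It was 0.15 for Hyou1, a chaperone gene, 0.16 for Gpx7 and 0.20 for Gpx8, both glutathione peroxidase genes, 0.20 for Ctsf, a cathepsin gene, and 0.22 for Sqor, a sulfide oxidation gene. With 4 arrays such a match is a description and carries no test.

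Pdgfra, the receptor for PDGF-A and PDGF-B chains, differed in opposite directions in the preparations. The probe set 1421917_at had 847 in XX/Sry tubules and 1836 in W/Wv tubules, but 2526 in XX/Sry whole testis and 1181 in W/Wv whole testis. XX/Sry was 2.17-fold lower in tubules and 2.14-fold higher in whole testis, and both W/Wv arrays lay between the XX/Sry arrays. Over all probe sets 1.54% were 2-fold or more higher in XX/Sry whole testis and 2-fold or more lower in XX/Sry tubules, and 0.0951% of those above the bound on all 4 arrays. The double ratio, tubules over whole testis, was -2.21 on the log2 scale. It is the residual of the additive fit and could not be tested.

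The other Pdgfra probe set, 1421916_at, was dimmer and varied less. It had 239 in XX/Sry tubules and 302 in W/Wv tubules, with 194 in XX/Sry whole testis and 174.0 in W/Wv whole testis. Its log2 ratios of -0.34 in tubules and 0.16 in whole testis had the signs of the brighter probe set, but neither reached 2-fold. Within XX/Sry the probe sets disagreed in direction: 1421917_at was 2.98-fold lower in tubules than in whole testis, and 1421916_at 1.23-fold higher.

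The 9 pericyte and fibroblast markers had median log2 ratios of XX/Sry over W/Wv of -0.59 in tubules and 0.02 in whole testis, and none passed in both. Col1a1, a collagen gene of fibroblasts, had 72.4 in XX/Sry tubules, 260 in W/Wv tubules, 525 in XX/Sry whole testis and 197 in W/Wv whole testis, the same order of arrays as Pdgfra 1421917_at. Of the 9 markers only Col1a1 had that order. Dcn, the gene of the matrix proteoglycan decorin, had 2233 in XX/Sry tubules, 3124 in W/Wv tubules, 9835 in XX/Sry whole testis and 9636 in W/Wv whole testis. Peritubular myoid and smooth muscle markers (8 genes) had medians of 0.14 and 0.44, with 0 past the rule. The part of these cells in the Pdgfra values was not tested.

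Pdgfrb, the receptor for PDGF-B on pericytes and smooth muscle, had low signals, and 1 of its 2 probe sets lay above the bound on all 4 arrays. The probe set 1436970_a_at had 136 in XX/Sry tubules, 116 in W/Wv tubules, 140.0 in XX/Sry whole testis and 191 in W/Wv whole testis. Its log2 ratios of 0.23 in tubules and -0.45 in whole testis had opposite signs. The probe set 1417148_at lay above the bound only in W/Wv tubules, at 67.7, against 18.5 in XX/Sry tubules. Its 22.6 in XX/Sry whole testis and 13.4 in W/Wv whole testis were both below the bound, so no fold is given there.

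Pdgfa and Pdgfb had low signals. Pdgfa, which encodes the A chain, had on 1418711_at 128 in XX/Sry tubules and 84.0 in W/Wv tubules, with 135 in XX/Sry whole testis and 89.7 in W/Wv whole testis. That is 1.52-fold and 1.5-fold higher in XX/Sry, with a fitted effect of 0.60 ± 0.55 (limma, adjusted p = 0.843). The other Pdgfa probe set, 1449187_at, had 162 in XX/Sry tubules and 87.8 in W/Wv tubules, but 103 in XX/Sry whole testis and 138 in W/Wv whole testis, opposite ways in the preparations. For Pdgfb, the B chain gene, 1450414_at had 196.5 in XX/Sry tubules, 239 in W/Wv tubules, 106 in XX/Sry whole testis and 73.8, below the bound, in W/Wv whole testis. The probe set 1450413_at did not exceed 76.0 on any array, and its 4.7 in W/Wv tubules and 72.1 in W/Wv whole testis were below the bounds.

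Csf1r, the receptor by which macrophages take their survival signal, did not pass between genotypes on any of its 3 probe sets. In tubules all 3 were lower in XX/Sry, with log2 ratios between -0.65 and -0.58, while in whole testis they lay between -0.10 and 0.73. The brightest, 1419872_at, had 849 in XX/Sry tubules and 1274 in W/Wv tubules, against 3875.5 in XX/Sry whole testis and 2703 in W/Wv whole testis. Macrophage markers (11 genes) had medians of -0.30 in tubules and 0.05 in whole testis, with 0 of 11 past the rule, and a summed signal of 3570 in XX/Sry tubules and 4550 in W/Wv tubules, against 14567 in XX/Sry whole testis and 12114.5 in W/Wv whole testis. The part of macrophage number in the Csf1r values was not tested.

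Csf1, the ligand that supports macrophages through Csf1r, had its highest signal in XX/Sry whole testis on all 4 probe sets. The brightest, 1460220_a_at, had 327 in XX/Sry tubules and 296 in W/Wv tubules, with 633 in XX/Sry whole testis and 459 in W/Wv whole testis. The probe set 1448914_a_at had 174 in XX/Sry tubules and 126 in W/Wv tubules, with 339 in XX/Sry whole testis and 234 in W/Wv whole testis. On 1425154_a_at XX/Sry was lower in tubules, at 173 against 214 in W/Wv, and higher in whole testis, at 339 against 171 in W/Wv. In whole testis the probe sets differed in size, from a log2 ratio of 0.46 to 0.99 for those above the bound on all arrays. The probe set 1425155_x_at had 218 in XX/Sry whole testis and 23.9, below the bound, in W/Wv whole testis, at least 2.86-fold higher, but 119 and 109 in XX/Sry and W/Wv tubules. Its suffix _x_at marks probes that may also bind other transcripts. In tubules the 4 log2 ratios lay between -0.30 and 0.47, and none of the 4 passed.

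Flt3, a receptor of lymphoid and dendritic cell precursors, was read by 1 probe set, 1419538_at. It had 117 in XX/Sry tubules, 108 in W/Wv tubules, 110.4 in XX/Sry whole testis and 70.0, below the bound, in W/Wv whole testis. The 8 lymphocyte and dendritic cell markers measured had 0 members above the bound on all 4 arrays. Flt3 was 1.08-fold higher in XX/Sry tubules and at least 1.45-fold higher in XX/Sry whole testis, and did not pass.

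Between preparations, Csf1r was lower in tubules than in whole testis, and no other member passed. Of the 22 probe sets 2 were lower in tubules in both genotypes, both Csf1r, and 0 were higher, against 5.86% lower and 1.81% higher over all probe sets, and 2.82% and 0.834% of those above the bound on all arrays. Of the members, 16 belong to the latter group, with 2 lower and 0 higher. The limma fit called the same 2 lower at an adjusted p under 0.05, against 0.977% lower and 0.239% higher of all probe sets. At an unadjusted p under 0.05 it had 8 of the 22, against 8.24% lower and 5.69% higher of all. These were probe sets of Kit, Csf1r, Csf1 and Pdgfb only, all lower in tubules except Pdgfb 1450414_at. The members' median log2 ratio of tubules over whole testis was -0.23 in XX/Sry and -0.17 in W/Wv, beside -0.03 and -0.15 over all probe sets. For the 16 members above the bound on all arrays it was -0.36 and -0.44. The handling of tubules and any difference between animals cannot be told apart here.

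**Figure D2:**
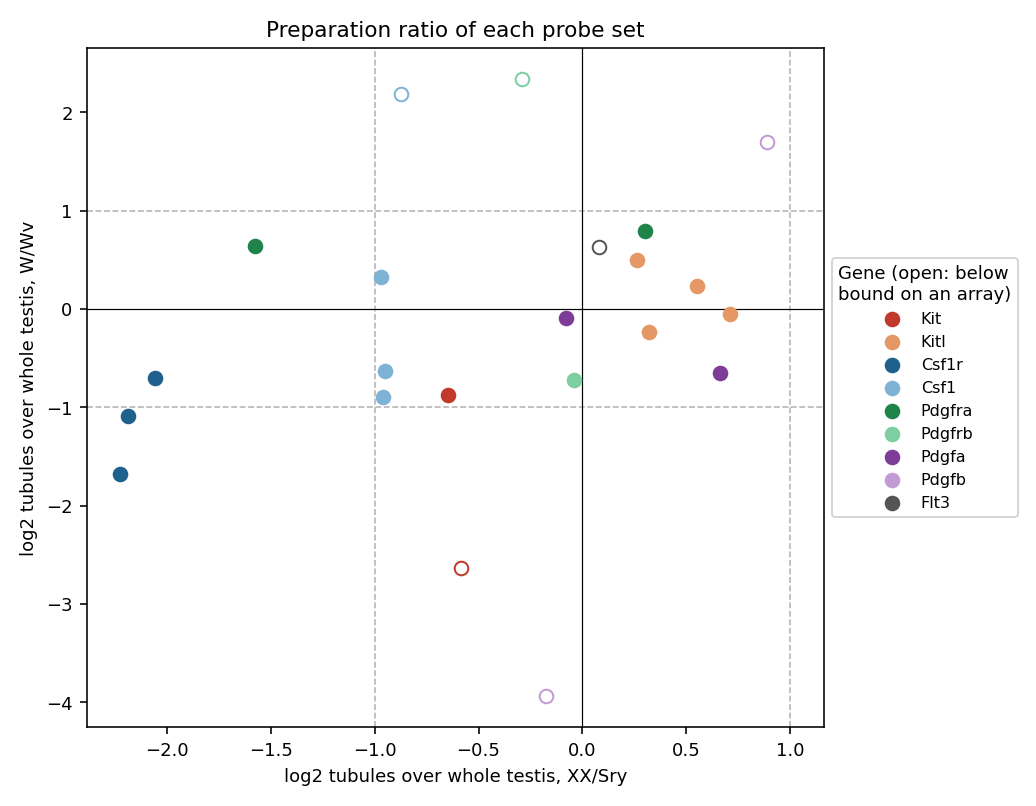
Log2 ratio of tubules over whole testis for each probe set, in XX/Sry (x axis) and in W/Wv (y axis), coloured by gene. Dashed lines mark 2-fold, and open points lay below the bound on at least 1 array. The 3 Csf1r probe sets lie between -2.23 and -2.06 in XX/Sry and between -1.68 and -0.70 in W/Wv.

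The Csf1r probe set 1419872_at was 4.56-fold lower in tubules than in whole testis in XX/Sry and 2.12-fold lower in W/Wv, with a fitted effect of -1.64 ± 0.29 (limma, adjusted p = 0.0232). The probe set 1419873_s_at had 204 in XX/Sry tubules against 951 in XX/Sry whole testis, and 318 in W/Wv tubules against 1022 in W/Wv whole testis. It was 4.68-fold and 3.21-fold lower, with a fitted effect of -1.95 ± 0.30 (limma, adjusted p = 0.0107). Both whole testis arrays stood above both tubule arrays on all 3 probe sets. The third, 1423593_a_at, had 171 in XX/Sry tubules against 713 in XX/Sry whole testis, and 265 in W/Wv tubules against 431 in W/Wv whole testis. At 4.17-fold and 1.63-fold lower it did not pass. Its adjusted p was 0.127 (limma), with a range of 0.0398 to 0.594 over the fit and its 5 alternatives.

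The adjusted p of 1419872_at ranged from 0.00241 to 0.57 and that of 1419873_s_at from 0.00101 to 0.544 over the fit and its 5 alternatives, the highest values coming without a trend of the variance on signal. Macrophage markers were also lower in tubules, 8 of 11 in both genotypes against 5.74% of all genes, with medians of -2.62 in XX/Sry and -1.61 in W/Wv. C1qa, the gene of a complement chain made by macrophages, had 175 in XX/Sry tubules against 2392 in XX/Sry whole testis, and 455 in W/Wv tubules against 1386 in W/Wv whole testis. Tyrobp, an adaptor gene of myeloid cells, had 140.2 against 1105 in XX/Sry and 169 against 1256 in W/Wv.

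Kit 1452514_a_at was 1.57-fold lower in tubules than in whole testis in XX/Sry and 1.84-fold lower in W/Wv, with a fitted effect of -0.76 ± 0.32 (limma, adjusted p = 0.313). The Kit probe set 1415900_a_at was 1.5-fold and at least 2.07-fold lower, so neither passed. Leydig markers were lower in tubules for 5 of 6 genes in both genotypes, against 5.74% of all genes, with medians of -1.44 in XX/Sry and -2.09 in W/Wv. For Kitl the log2 ratios lay between 0.26 and 0.71 in XX/Sry and between -0.24 and 0.50 in W/Wv, beside medians of 0.44 and 0.50 for 12 Sertoli cell markers. Csf1 was 1.83-fold to 1.96-fold lower in XX/Sry tubules on its 4 probe sets, while in W/Wv the log2 ratios of the 3 above the bound on all arrays ran from -0.89 to 0.32. The remaining one, 1425155_x_at, was at least 1.43-fold higher in W/Wv tubules. Pdgfb 1450414_at was 1.85-fold higher in XX/Sry tubules and at least 3.13-fold higher in W/Wv tubules, and passed 2-fold after the arrays were centred on their medians but not as deposited.

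**Figure D3:**
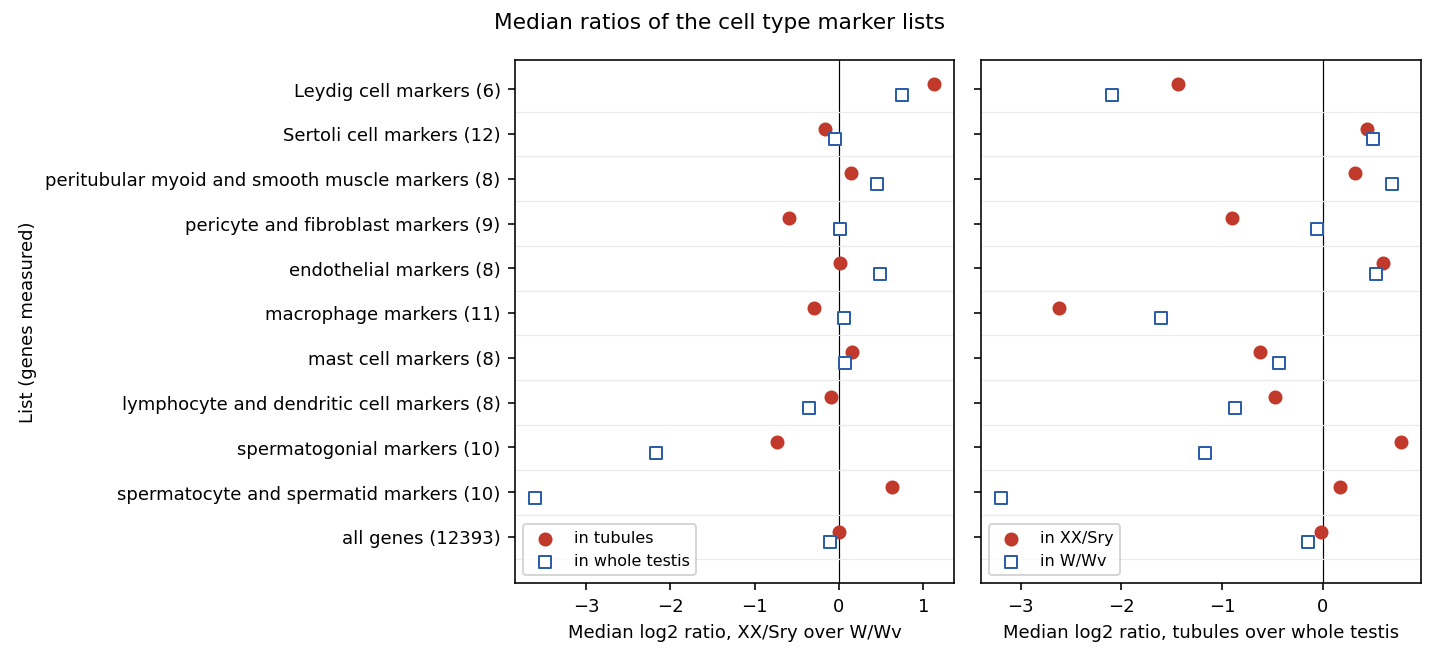
Median log2 ratio of each marker list and of all genes, with 1 probe set per gene, for XX/Sry over W/Wv (left) and tubules over whole testis (right), each point from 1 pair of arrays. Macrophage and Leydig medians lie below 0 for tubules over whole testis in both genotypes, and Leydig medians lie above 0 for XX/Sry over W/Wv in both preparations.

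Ligands of the same receptors outside the set were Pdgfc and Pdgfd, which encode further PDGF chains, and Il34, whose protein also binds Csf1r. None of the 3 passed in either comparison. Pdgfc had 1644 in XX/Sry tubules and 2686 in W/Wv tubules, with 1243 in XX/Sry whole testis and 1723 in W/Wv whole testis. Il34 had 132 and 71.6 in XX/Sry and W/Wv tubules, and 108 and 85.1 in XX/Sry and W/Wv whole testis. Pdgfd lay above the bound only in XX/Sry whole testis, at 121.

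Of 53 genes listed for signalling downstream of these receptors, 43 were measured and nearly all passed in neither direction. Between genotypes 1 was higher and 1 lower in XX/Sry, beside 1.98% and 3.22% over all genes. Dok1, an adaptor that restrains Ras signalling, had 150.5 and 60.4 in XX/Sry and W/Wv tubules, and 167 and 66.4, the last below the bound, in XX/Sry and W/Wv whole testis. It was 2.49-fold higher in tubules and at least 2.19-fold higher in whole testis. Gab1, a docking protein for phosphoinositide 3-kinase, had 1042 and 2376 in XX/Sry and W/Wv tubules, and 803 and 1717 in XX/Sry and W/Wv whole testis, 2.28-fold and 2.14-fold lower. The list's median log2 ratio of XX/Sry over W/Wv was 0.04 in tubules and 0.04 in whole testis, beside 0.00 and -0.10 for all genes. Averaging all probe sets of a gene left 0 lower, so Gab1 no longer passed.

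Between preparations 0 of the 43 were higher and 1 lower in tubules, beside 1.32% and 5.74% over all genes. Pik3r1, a regulatory subunit of phosphoinositide 3-kinase, had 36.4 in XX/Sry tubules, below the bound, against 218.5 in XX/Sry whole testis, and 56.9 in W/Wv tubules against 133.5 in W/Wv whole testis. The tubule signal was lower by at least 3.42-fold in XX/Sry and by 2.35-fold in W/Wv, but Pik3r1 did not pass after quantile normalisation. The list's median log2 ratio of tubules over whole testis was -0.15 in XX/Sry and 0.10 in W/Wv.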

How the data were processed

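RNA of 4 adult testis samples was hybridised to Affymetrix Mouse Expression 430A arrays, 1 per group. The deposited values are an intensity per probe set, made with MAS5 per the submitters' processing notes; scaling and detection calls were not used here. Of 22690 probe sets, 64 controls were set aside. The platform annotation gave 1 gene to 20380 of the rest, several to 691 and none to 1555; 20351 had their identifier in the RefSeq gene table. No column was left unused. Replicates do not exist, so ratios have no replicate check. The additive fit used limma 3.58.1 in R 4.3.3 (variance trend, 9.98 degrees of freedom from the prior, two-sided). A simulation with independent noise and variances drawn from the fit's own prior checked that planted changes were recovered. It cannot show that the p-values hold for these arrays. The fit takes the arrays as independent, and whether preparations share animals is not given. Lists used the probe set of highest mean log2 signal per gene. Every probe set of the set was named; signalling genes were named when they passed and exceeded the bound on the brighter array of each pair. Alternatives were median centring, quantile normalisation, a constant of 62.4, the bound, a dim filter, 1.5-fold, and other probe set choices. Members and lists were chosen with earlier results of these data known.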

Additional observations from a re-analysis of the deposited data

Results flagged for a closer look

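One result stood out because the genotypes differed at least 2-fold in opposite directions in the preparations. For the Pdgfra probe set 1421917_at, the log2 ratio of XX/Sry over W/Wv in tubules minus that in whole testis was -2.21. With 1 array per group this difference was not tested. The second Pdgfra probe set, 1421916_at, gave -0.49.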

How the results depend on the processing

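Of the 22 probe sets, the 1 higher and the 0 lower in XX/Sry stayed at those counts under all alternatives except 1.5-fold, which gave 3 higher (1452514_a_at and 1415900_a_at of Kit and 1418711_at of Pdgfa). For tubules over whole testis, the count lower was 2 as reported, 1 after median centring and with either value per gene (mean or brightest probe set, 9 genes), and 7 at 1.5-fold, and the count higher was 1 after median centring and at 1.5-fold against 0. The limma fit called 0 for genotype, but 1 (Kit 1452514_a_at) after quantile normalisation and among probe sets above the bound on at least 1 array. For preparation it called 2, but 3 among probe sets above the bound on at least 1 array (adding Csf1r 1423593_a_at), 1 after median centring and with the constant added, and 0 without a trend; the cause was not tested. Opposite 2-fold genotype differences numbered 1, and 2 after quantile normalisation, which added a Pdgfrb probe set below the bound on 3 arrays; these checks were chosen after seeing the data. Signalling genes lower in XX/Sry numbered 0 with the mean of all probe sets against 1. In tubules 1 was higher with that mean and with median centring against 0, and 0 were lower after quantile normalisation against 1. No block of replicates could be fitted because each group had 1 array, and the additive fit already pairs arrays by preparation. Signals near the bound limit Flt3, Pdgfb, Pdgfrb and Pdgfa.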

Other observations

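The likeness measure used for Kit was also applied to the brightest Pdgfra and Csf1r probe sets, a choice made after their values were seen. For Csf1r 1419872_at the nearest pattern was that of Serpinf1, which encodes a secreted serpin, with a root mean square log2 difference of 0.013 over the 4 arrays. Serpinf1 had 415 in XX/Sry tubules and 618.5 in W/Wv tubules, with 1894.5 in XX/Sry whole testis and 1292 in W/Wv whole testis. The next were Ighm, Glul, Rgs10 and Ccnd2, at 0.071 to 0.10.

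For Pdgfra 1421917_at the nearest were Hadh, Cyhr1, Zfand2b, Irf3 and Rsrp1, at 0.072 to 0.13. Hadh, a gene of fatty acid oxidation, had 142 in XX/Sry tubules and 335 in W/Wv tubules, with 484 in XX/Sry whole testis and 207 in W/Wv whole testis. As for Pdgfra, it was lower in XX/Sry tubules and higher in XX/Sry whole testis.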
